A study of Mus musculus with 8 samples.

Results

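The genes described here are 142 developmental transcription factors that lie outside the Hox clusters, out of 22225 protein-coding genes. They were chosen by symbol from the GENCODE vM1 annotation of the mouse genome (mm9) and belong to 11 families: Fox (42 genes), Sox (18), Nkx (14), Pou (14), Tbx (13), Pax (9), Lhx (8), Gata (6), Irx (6), Dlx (6) and sine oculis homeobox (6). The rule used symbols alone. In both tumor lines their promoters and gene bodies held more H3K27me3 peaks than those of other genes, their H3K9ac peaks were fewer than in other CpG-rich promoters, and their gene bodies held less H3K36me3 than those of other CpG-rich genes. Of 12 members whose gene bodies lay below the mean of all genes for H3K27me3 in LLC-NR, 9 were Fox genes that many tissues express. In LLC-R 7 members lay below this mean, and only 2 of them were genes that many tissues express.

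H3K27me3 is written by Polycomb repressive complex 2 and covers genes that are kept silent, and developmental regulators are its classical targets. H3K4me3 and H3K9ac sit at the start of active genes, and H3K36me3 follows elongating RNA polymerase II along the gene body. A promoter that carries both H3K4me3 and H3K27me3 is called bivalent, a state known from many developmental genes in stem cells. The families bind DNA through homeodomains (Nkx, Lhx, Irx, Dlx, sine oculis, and in part Pax and Pou), forkhead domains (Fox), HMG boxes (Sox), T-boxes (Tbx) or zinc fingers (Gata), and their members set the identity of organs and cell lineages.

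The active marks H3K4me3, H3K9ac and H3K36me3 and the repressive mark H3K27me3 had been profiled by ChIP-seq in isografts of Lewis lung carcinoma, a mouse tumor cell line. Each mark had a single library from each line, 8 in total. LLC-NR is the line sensitive to VEGF-Trap, a decoy receptor for VEGF, and LLC-R is a Lewis lung carcinoma line made resistant by 5 rounds of selection in mice that received VEGF-Trap. Cells of either line were grown under the skin of the flank of female C57BL/6J mice of 6 to 8 weeks, with 10 mice per line, to tumors of about 500 mm3. No treatment of the mice that bore these tumors is named, and how many tumors went into a library was not given in the sources used here. Whole tumor tissue was used, so that cells of the host could be included, and a change in the share of a cell type cannot be told apart from a change in signal per cell.

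The deposited files give positions of peaks without a height. A peak is an interval of 147 bp, about the DNA of 1 nucleosome, peaks of a library do not overlap, and no promoter of any gene held more than 9. The libraries held between 5660458 and 9101721 peaks, from 2.14 to 6.01 mapped reads per peak, and LLC-R held 0.997 times the H3K4me3 peaks of LLC-NR, 0.919 times the H3K9ac peaks, 1.26 times the H3K27me3 peaks and 1.36 times the H3K36me3 peaks. With 1 library per line and mark no difference between the lines has a replicate check, no p-value is given, and each SD below is the spread across genes. The tissue label, lung, could not be checked by expression. The surfactant genes Sftpc and Sftpb, the club cell gene Scgb1a1 and Nkx2-1, markers of lung epithelium, had gene-body H3K27me3 densities of 1.37 ± 0.24 times the mean of all genes in LLC-NR and 1.20 ± 0.07 in LLC-R (SD, n = 4 genes). The endothelial markers Pecam1, Cdh5, Tek and Kdr had 1.31 ± 0.10 and 1.13 ± 0.07 (SD, n = 4 genes). The epithelial markers Epcam, Cdh1, Krt8 and Krt18 had 1.18 ± 0.43 and 1.17 ± 0.19 (SD, n = 4 genes). In LLC-NR they were split, with Krt8 at 0.67, Krt18 at 0.96, Cdh1 at 1.51 and Epcam at 1.55. The mesenchymal markers Vim, Fn1 and Cdh2 had 1.06 ± 0.28 and 1.09 ± 0.11 (SD, n = 3 genes), with Vim at 0.91, Cdh2 at 0.88 and Fn1 at 1.38 in LLC-NR. The leukocyte markers Ptprc, Cd68, Itgam and Cd3e had 1.04 ± 0.72 and 1.12 ± 0.11 (SD, n = 4 genes), with Cd68 at 0 in LLC-NR.

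The promoters of the 142 genes were rich in CpG. Of them, 110 were CpG-rich promoters (HCPs), 17 had an intermediate CpG level (ICPs) and 15 were CpG-poor (LCPs), so that 77.5% were HCPs against 53.9% of all genes. Their G+C content was 57.3% ± 6.7 (SD, n = 142 genes), and their gene bodies were short, with a median of 6.51 kb against 15.3 kb over all genes and 23.4 kb over other genes with CpG-rich promoters. The genes lay on 20 chromosomes, 23 of them had another of the 142 within 100 kb, such as Dlx1 and Dlx2 at 18.6 kb and Dlx3 and Dlx4 at 26.2 kb, and neighbours of this kind share part of their surroundings. The 150 bases upstream of the start site are shown for 4 genes from different parts of the range (mm9, 5′ to 3′ on the strand of the gene, with every CG dinucleotide in capitals). Nkx2-4 (chr2:146911182-146911331, minus strand) and Pou4f2 (chr8:80960552-80960701, minus strand) had the highest gene-body H3K27me3 densities of all members with CpG-rich promoters, Foxn2 (chr17:88839901-88840050, plus strand) had the lowest among broadly expressed ones, and Foxn3 (chr12:100688285-100688434, minus strand) had the fewest H3K4me3 peaks among CpG-poor ones.
Nkx2-4: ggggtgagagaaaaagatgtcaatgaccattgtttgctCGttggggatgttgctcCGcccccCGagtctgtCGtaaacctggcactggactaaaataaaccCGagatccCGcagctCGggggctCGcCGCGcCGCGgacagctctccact
Pou4f2: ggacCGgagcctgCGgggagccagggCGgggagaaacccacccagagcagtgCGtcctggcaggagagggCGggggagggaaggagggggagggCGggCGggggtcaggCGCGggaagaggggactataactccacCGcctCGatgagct
Foxn2: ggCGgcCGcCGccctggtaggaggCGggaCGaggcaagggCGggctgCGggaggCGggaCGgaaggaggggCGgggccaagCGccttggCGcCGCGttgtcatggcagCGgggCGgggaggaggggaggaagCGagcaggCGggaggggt
Foxn3: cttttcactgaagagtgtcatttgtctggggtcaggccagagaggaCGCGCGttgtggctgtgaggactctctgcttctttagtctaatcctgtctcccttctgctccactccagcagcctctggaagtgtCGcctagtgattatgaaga
These windows held 12, 11, 18 and 4 CG dinucleotides. The dinucleotide reads the same on both strands, and 87.4% of all promoters hold at least 1 in this window, with a median of 6.

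In both lines H3K27me3 was higher in the promoters of the transcription factors than in all other promoters and than in other CpG-rich promoters. A promoter spanned the 1 kb before and the 0.5 kb after the TSS, and peaks were counted by their midpoints. The 142 promoters held 5.77 ± 1.44 H3K27me3 peaks for LLC-NR and 6.55 ± 0.82 for LLC-R (SD, n = 142 genes), against 4.67 ± 1.61 and 5.58 ± 1.36 in 11877 other CpG-rich promoters. In windows of the same length at least 5 kb from any TSS the means were 4.23 and 5.32 peaks. The transcription factors were thus 1.23 times as high as other CpG-rich promoters in LLC-NR and 1.17 times in LLC-R, and 1.27 and 1.20 times as high as all other promoters. In LLC-NR, 123 of 142 members lay above the mean of other promoters and in LLC-R 129 did, where 56.4% and 58.6% of the other promoters lay above their own mean. Among HCPs the ratio was above 1 in each of 4 bands of G+C content, from 1.13 to 1.28 in LLC-NR and from 1.09 to 1.25 in LLC-R. Hox genes, a known set of Polycomb targets, held 6.38 ± 0.99 and 6.46 ± 0.82 peaks (SD, n = 39 genes), and cytosolic ribosomal protein genes, which all cells express, held 3.32 ± 1.44 and 4.58 ± 1.41 (SD, n = 76 genes).

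All 11 families lay above other CpG-rich promoters in this mark in both lines. The Lhx genes, LIM-homeodomain factors of neurons and limbs, had the highest mean in LLC-NR with 6.62 ± 1.06 peaks (SD, n = 8 genes) and held 6.75 ± 1.04 in LLC-R. The sine oculis genes, homeodomain factors of eye, muscle and kidney, held 6.50 in LLC-NR and the highest mean of LLC-R, 7.33. The Nkx, Tbx and Pax families followed in LLC-NR with 6.43, 6.23 and 6.11. The Fox and Pou families were lowest in LLC-NR with 5.31 ± 1.81 (SD, n = 42 genes) and 5.07 ± 1.07 (SD, n = 14 genes). The order of the families was not tested. Only 8 members lay below the mean of all promoters in both lines, 5.63% against 28.2% of all genes. These were Foxk1, Foxn3, Foxp1, Foxp3, Pou2f1, Pou3f4, Sox15 and Tbx6, and 4 of them belong to the 18 members listed, from general knowledge, as broadly expressed.

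**Figure D1:**
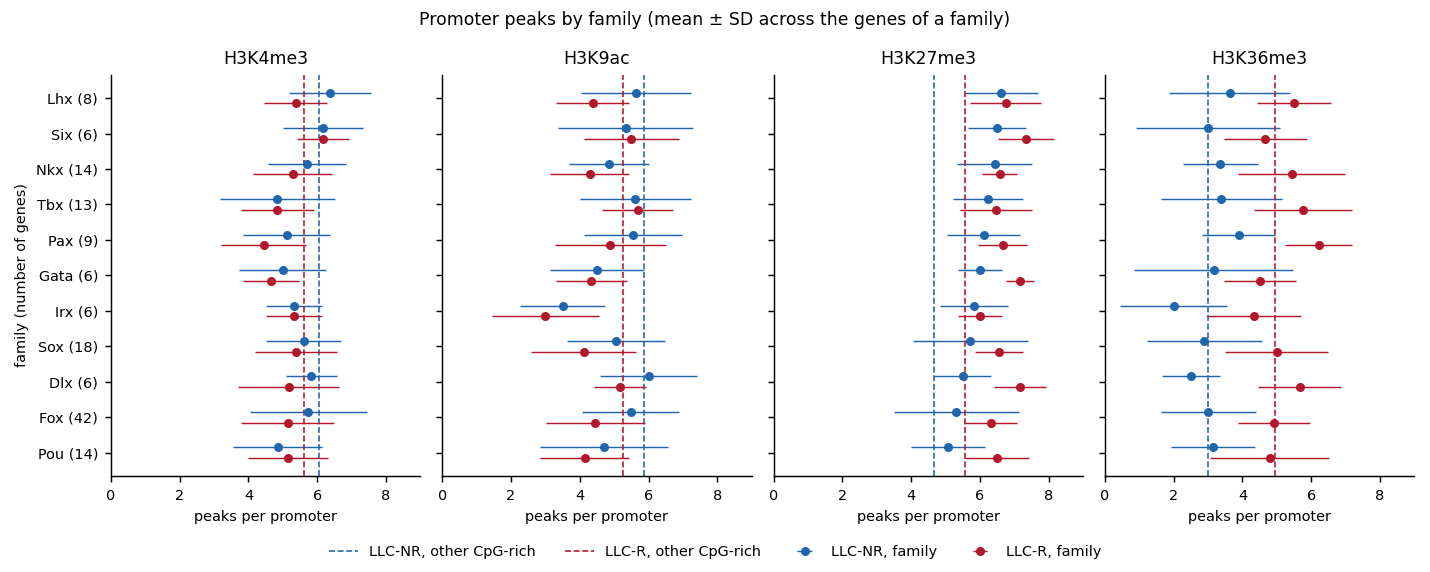
Mean number of peaks per promoter for each family (points; bars are the SD across the genes of the family) in LLC-NR (blue) and LLC-R (red), 1 panel per mark, with dashed lines at the mean of 11877 other CpG-rich promoters. For H3K27me3 every family mean lies to the right of the dashed line of its own line, from 5.07 to 6.62 in LLC-NR and from 6.00 to 7.33 in LLC-R.

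H3K4me3 reached 5.52 ± 1.41 peaks per promoter in LLC-NR and 5.16 ± 1.19 in LLC-R (SD, n = 142 genes), which was 1.12 times all other promoters in both lines but 0.911 and 0.921 times other CpG-rich promoters. The direction therefore depended on the genes compared. Members with HCPs held 5.85 and 5.47 H3K4me3 peaks and the 32 members without held 4.41 and 4.09. Every member had at least 1 H3K4me3 peak in both lines, and so had most genes. Without a peak were 1076 and 1081 of all 22225 promoters and 79 and 82 of 11877 other CpG-rich ones. Windows far from any TSS had means of 3.24 and 3.25 H3K4me3 peaks. The lowest member was Foxn3, a forkhead factor of the cell cycle checkpoint, with 1 and 2. H3K9ac was lower than in other CpG-rich promoters, with 5.20 ± 1.52 and 4.51 ± 1.41 peaks against 5.87 ± 1.37 and 5.26 ± 1.32. It was also lower than in all other promoters (0.944 and 0.907 times). Windows far from any TSS had means of 4.96 and 4.56 H3K9ac peaks, close to those of the members. The Irx genes, homeodomain factors of heart and neural patterning, had the fewest H3K9ac peaks of all families, 3.50 in LLC-NR against 3.0 in LLC-R. Irx2 held 2 in each line. H3K36me3 promoter peaks, 3.11 ± 1.49 and 5.14 ± 1.34, were 1.03 and 1.04 times those of other CpG-rich promoters.

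Around the start site the 4 marks had different shapes. In LLC-NR the H3K27me3 of the transcription factors stayed between 1.77 and 2.04 peaks per 500 bp over the whole 20 kb examined with no clear decline on either side. Other CpG-rich genes held 1.57 peaks per 500 bp from 5 to 10 kb upstream and 1.36 from 5 to 10 kb downstream, where the transcription factors held 1.86 and 1.89. In LLC-R the corresponding values were 1.94 and 1.88 for other CpG-rich genes and 2.06 and 2.13 for the transcription factors. The excess over other CpG-rich genes was therefore wider than the promoter and larger on the downstream side. In LLC-NR the transcription factors were nearly level on both sides, and the other CpG-rich genes were lower downstream. Gene bodies had medians of 6.51 kb and 23.4 kb, so the bins from 5 to 10 kb downstream cover unlike parts of the genes compared. H3K4me3 was highest in the 500 bp after the TSS, at 1.97 peaks for LLC-NR and 1.85 for LLC-R, below the 2.16 and 2.08 of other CpG-rich genes. H3K9ac had a trough at the start site. In the bins on either side of the TSS it was 0.853 times its own level 5 to 10 kb away in LLC-NR and 0.798 times in LLC-R, against 0.942 and 0.926 in other CpG-rich genes. H3K36me3 also had a trough there in both gene sets, and from 1 to 5 kb downstream the transcription factors held 1.32 peaks per 500 bp in LLC-NR against 1.65 in other CpG-rich genes. In LLC-R these values were 1.92 and 2.02.

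**Figure D2:**
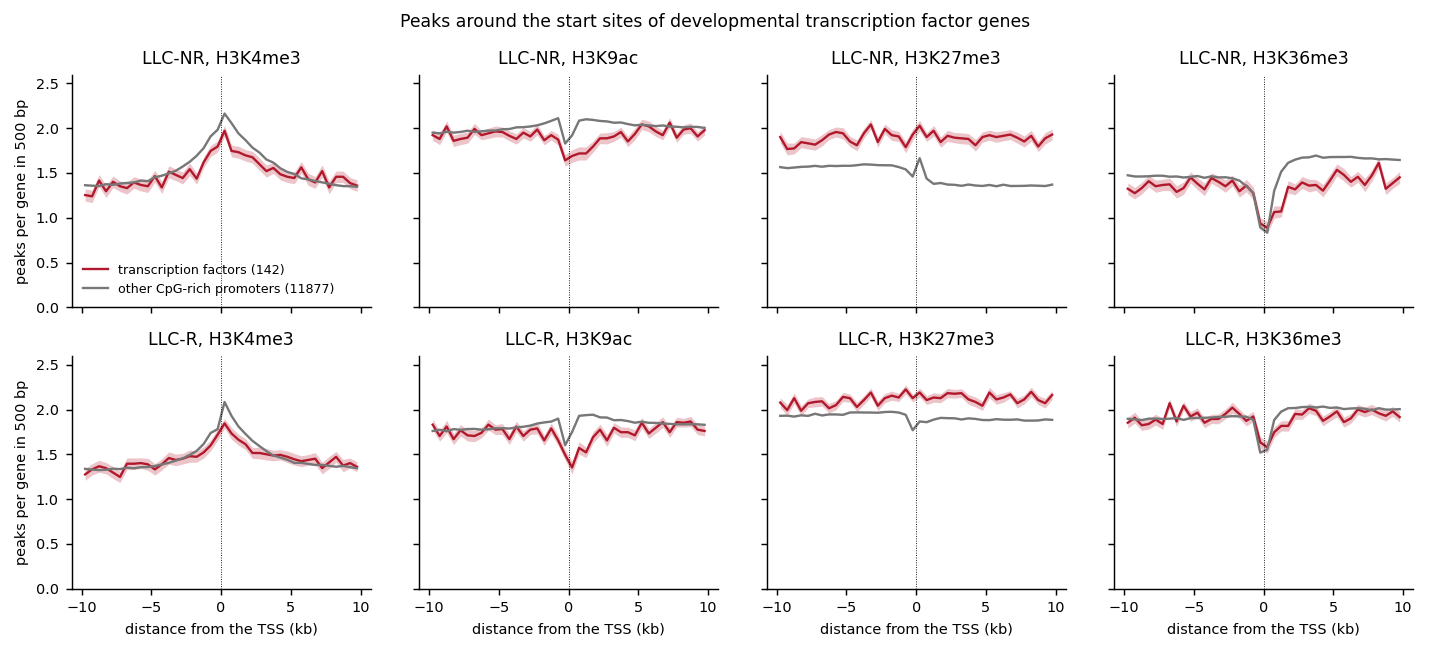
Mean number of peaks per gene in bins of 500 bp against distance from the TSS in kb, for the 142 transcription factors (red) and 11877 other genes with CpG-rich promoters (grey), LLC-NR above and LLC-R below, 1 column per mark; shading is the SE across genes. The red H3K27me3 line lies above the grey one over the whole range in both lines, and the red H3K36me3 line in LLC-NR stays below the grey one from 1 kb downstream of the TSS on.

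Gene bodies differed from those of other CpG-rich genes in both H3K27me3 and H3K36me3. From TSS to gene end the transcription factors held 3.74 ± 0.67 H3K27me3 peaks per kb in LLC-NR and 4.22 ± 0.36 in LLC-R (SD, n = 142 genes), against 2.68 ± 0.87 and 3.69 ± 0.64 in other genes with CpG-rich promoters. Their H3K36me3 density was 2.51 ± 0.74 and 3.65 ± 0.54 peaks per kb, against 3.24 ± 0.83 and 3.95 ± 0.63. These are ratios of 1.40 and 1.14 for H3K27me3 and of 0.777 and 0.926 for H3K36me3. Against all other genes the H3K36me3 ratios were 0.901 and 1.02, so that in LLC-R the direction depended on the genes compared. Both ratios were nearer to 1 in LLC-R, whose H3K27me3 and H3K36me3 libraries held 2.14 and 2.32 times the mapped reads of those of LLC-NR, and the part of depth in this difference was not tested. The body densities of single genes are given below relative to the mean of all genes, which is set to 1. Of the 142 genes, 12 lay below 1 for H3K27me3 in LLC-NR and 7 in LLC-R, where 50.4% and 32.6% of all genes did. For H3K36me3, 91 and 50 lay below 1, and 42.5% and 28.6% of all genes did.

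The highest H3K27me3 body densities among genes of at least 2 kb were those of Nkx2-4, Pou4f2, Foxd1, Foxq1 and Foxe1. Nkx2-4, a homeodomain factor of the ventral forebrain and a paralog of Nkx2-1, had 1.73 in LLC-NR and 1.46 in LLC-R, from 10 and 11 peaks in 2.13 kb. Pou4f2, a POU factor of retinal ganglion cells, had 1.71 and 1.39, from 17 and 18 peaks. Foxd1, a forkhead factor of kidney stroma, had 1.64 and 1.38. Foxq1 had 1.71 and 1.31, and Foxe1, a factor of thyroid development, had 1.70 and 1.31. These are short genes of 2.13 to 3.64 kb, so their bodies lie close to their promoters. Foxd1 and Nkx2-4 also had the lowest H3K36me3 densities, 0.29 and 0.56 for Foxd1, from 2 and 5 peaks, and 0.34 and 0.65 for Nkx2-4. Foxc2, a factor of lymphatic vessels, with 0.40 and 0.82, Foxl2, a factor of the ovary, with 0.43 and 0.88, and Pou3f3, a neural POU factor, with 0.70 and 0.63, completed the lowest 5.

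At the other end of the range, broadly expressed forkhead genes stood beside a few tissue-restricted ones. Foxp3, the factor of regulatory T cells, had the lowest mean H3K27me3 density over both lines, 0.64 in LLC-NR and 0.87 in LLC-R. Tbx6, a T-box factor of the presomitic mesoderm, had 0.63 and 0.90. Foxn2, Foxj3 and Foxj2, forkhead factors of broad expression, had 0.80 and 0.89, 0.77 and 1.0, and 0.77 and 1.03. Sox15, an HMG-box factor of 1.41 kb in length and thus below the length limit of this ranking, had 0.52 and 1.20. The highest H3K36me3 densities belonged to Six4, with 1.44 and 1.25, Foxk2, with 1.47 and 1.19, Tbx15, with 1.43 and 1.20, Pou2f1, with 1.38 and 1.17, and Foxo3, with 1.33 and 1.19. Of these, Foxk2, Pou2f1 (Oct-1) and Foxo3 are broadly expressed, and Six4 and Tbx15 are factors of muscle and of limb and skin.

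The 18 broadly expressed members differed in mean from the 124 others, called tissue-restricted. Their gene bodies were longer, with a median of 52.1 kb against 5.56 kb. Their H3K27me3 body density was 2.90 ± 0.77 peaks per kb in LLC-NR and 3.90 ± 0.32 in LLC-R (SD, n = 18 genes), against 3.87 ± 0.56 and 4.27 ± 0.34 in the tissue-restricted genes, and their H3K36me3 density was 3.18 ± 0.56 and 3.91 ± 0.42 against 2.42 ± 0.71 and 3.62 ± 0.54. The tissue-restricted genes were 1.33 and 1.09 times as high in H3K27me3 and 0.761 and 0.924 times as high in H3K36me3. The part of gene length in these differences was not tested. The broadly expressed genes spread over most of the range. In LLC-NR, 9 of them lay below 1 for H3K27me3, Foxj2, Foxj3, Foxk1, Foxk2, Foxm1, Foxn2, Foxo3, Foxo4 and Foxp1, while 3 of 124 tissue-restricted genes did, Foxp3, Sox15 and Tbx6. Foxo1, Six5, Sox13, Sox12, Pou6f1 and Sox4 lay in the range of the tissue-restricted genes, with 1.54, 1.55, 1.44, 1.41, 1.33 and 1.25. Foxo1 and Foxo3, forkhead factors under the control of insulin signalling, thus differed, at 1.54 and 0.94 in LLC-NR and at 1.22 and 1.07 in LLC-R. In LLC-R only 2 of the 18 broadly expressed genes lay below 1 for H3K27me3, 11.1%, and 5 of the 124 tissue-restricted genes did, 4.03%. Across the 132 members of at least 2 kb the H3K27me3 and H3K36me3 densities were inversely related in LLC-NR, with Pearson's r = -0.40 and Spearman's rho = -0.26, and less so in LLC-R, with -0.20 and -0.16. Within the 114 tissue-restricted genes of this length r was -0.18 and -0.11. These are descriptions across genes, which share their libraries, base composition and in part their location and are not independent replicates.

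**Figure D3:**
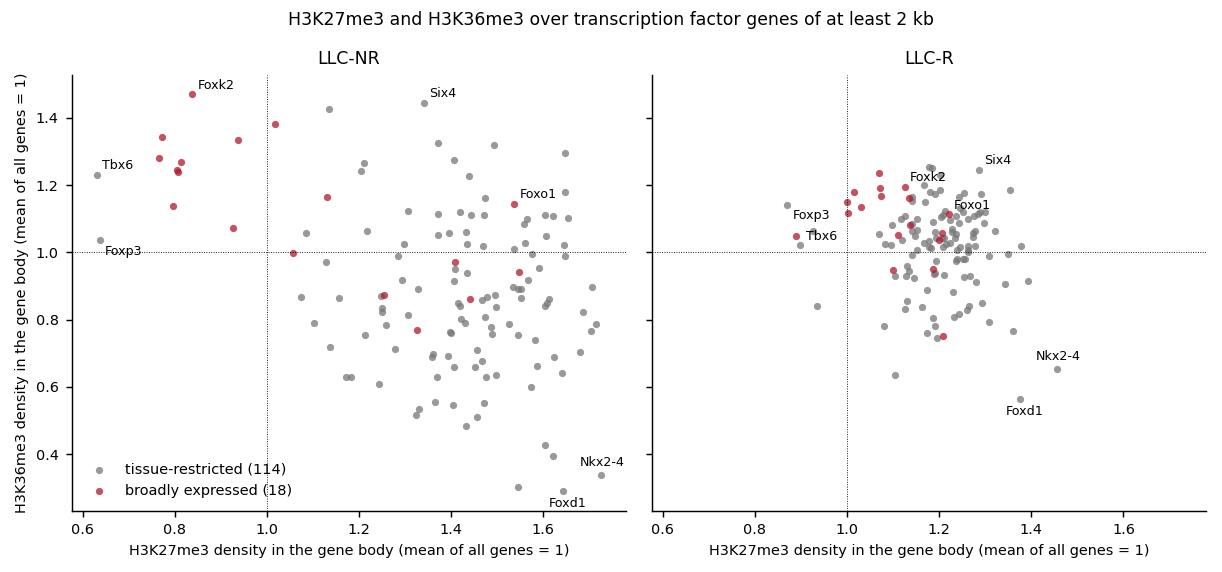
H3K36me3 against H3K27me3 density in the gene body for 132 transcription factor genes of at least 2 kb, each relative to the mean of all genes (dotted lines at 1), with broadly expressed genes in red and tissue-restricted genes in grey; LLC-NR on the left, LLC-R on the right. In LLC-NR, Foxk2 (0.84 and 1.47) lies at the upper left and Foxd1 (1.64 and 0.29) at the lower right, and in LLC-R the points lie closer together.

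Promoter states combine the marks. A promoter was called active when H3K4me3 or H3K9ac reached the mean of all promoters of the library and H3K27me3 did not, repressive in the opposite case, bivalent when both held, and none when neither did. In LLC-NR, 107 of the 142 genes were bivalent, 75.4% (exact 95% interval 67.4 to 82.2%, counting error only), against 48.5% of all genes and 52.0% of other CpG-rich promoters. A further 17 were active, 12.0%, where 29.8% of all genes were, 16 were repressive, 11.3%, where 8.17% of all genes were, and 2 had none, where 13.6% of all genes did. In LLC-R, 114 were bivalent, 80.3% (exact 95% interval 72.8 to 86.5%), against 53.1% of all genes and 54.3% of other CpG-rich promoters. There 9 were active, against 28.3% of all genes, 15 were repressive, against 5.71%, and 4 had none, against 12.9%. The excess of bivalent promoters depended on this rule. When H3K4me3 and H3K9ac were both asked for, 33.8% of the members were bivalent in either line, against 27.9% and 29.5% of all genes and 35.2% and 37.9% of other CpG-rich promoters. By that rule 52.8% of the members were repressive in LLC-NR and 57.0% were in LLC-R, against 28.7% and 29.2% of all genes and 21.3% and 19.5% of other CpG-rich promoters.

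Of the 142 genes, 100 kept their state between the lines, 70.4% against 62.1% of all genes, and 94 were bivalent in both, 66.2% against 35.1%. All 39 Hox genes were bivalent in LLC-NR and 34 of them in both lines. The 17 members active in LLC-NR included Dlx2, Foxj2, Foxk1, Foxk2, Foxm1, Foxn3, Foxp1, Foxp3, Pax6, Pou2f1, Pou2f2, Sox11, Sox15 and Tbx6. Foxn3, Foxp1 and Foxp3 held 1, 4 and 2 H3K4me3 peaks and were called active by 6 H3K9ac peaks each alone. In LLC-NR, windows far from any TSS had means of 3.24 H3K4me3 and 4.96 H3K9ac peaks. Of the 17, Foxk1, Pou2f1, Sox15 and Tbx6 were active in LLC-R as well, 7 were bivalent there, 3 repressive, among them Pax6, and 3 had none (Foxn3, Foxp1 and Foxp3). Those active in both lines made up 23.5%, where 52.7% of all genes active in LLC-NR stayed so, and those that turned bivalent 41.2%, where 40.5% of all such genes did. Of the 16 repressive members 13 were bivalent in LLC-R, 81.3%, where 55% of all repressive genes and 58.3% of those with other CpG-rich promoters were. The 13 members that went from repressive to bivalent, among them Sox7, Foxc2, Tbx2, Tbx5, Gata5, Pax1, Pax7 and Pou4f1, crossed a threshold of 4.92 H3K4me3 peaks for LLC-NR and 4.61 for LLC-R or of 5.51 and 4.96 H3K9ac peaks. Sox7 had 4 H3K4me3 peaks for LLC-NR and 6 for LLC-R. Pax7 had 4 H3K4me3 and 5 H3K9ac peaks in each line and differed in state because the thresholds did.

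**Figure D4:**
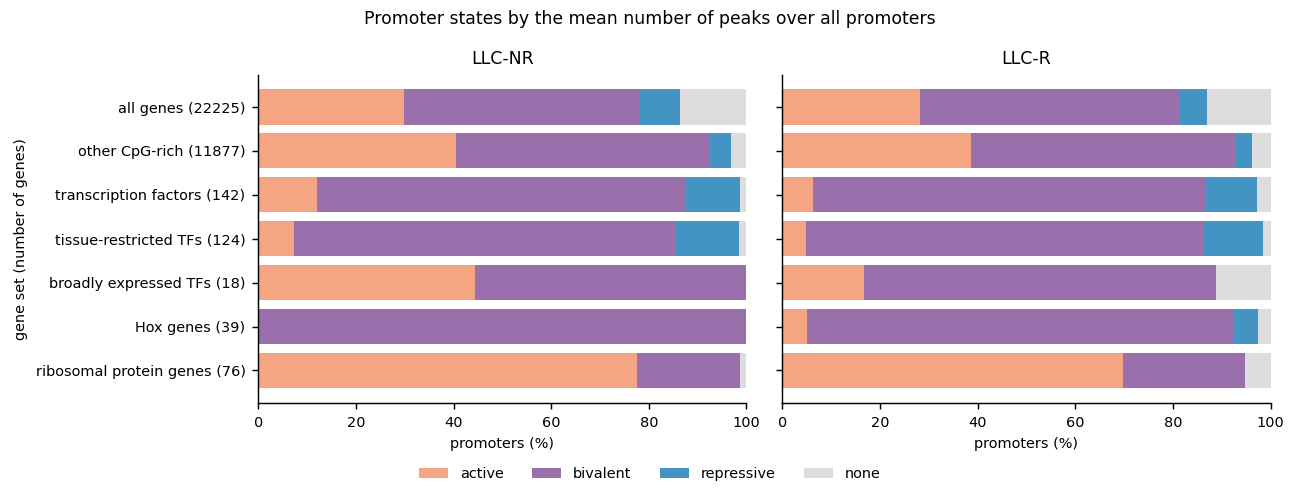
Share of promoters (%) in each state, for all genes, other CpG-rich promoters, the 142 transcription factors, their tissue-restricted and broadly expressed members, Hox genes and cytosolic ribosomal protein genes; LLC-NR on the left, LLC-R on the right. Bivalent promoters make up 75.4% and 80.3% of the transcription factors and 48.5% and 53.1% of all genes.

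Lists of factors by tissue show single regulators. The 8 factors of lung and foregut epithelium (Nkx2-1, Foxa1, Foxa2, Sox2, Sox9, Gata6, Foxj1 and Foxp2) were all bivalent in LLC-NR, and 7 were in LLC-R. Of all 124 tissue-restricted members 78.2% and 81.5% were bivalent. With both active marks asked for, 33.8% of the 142 members were bivalent in either line. Nkx2-1, the regulator of lung and thyroid identity that is used as a marker of lung adenocarcinoma, held 7 H3K27me3 peaks in each line, with 6 and 5 H3K4me3 and 5 and 3 H3K9ac peaks. Its gene body stood at 1.55 and 1.19 for H3K27me3 and at 0.86 and 0.78 for H3K36me3. Foxa1 and Foxa2, pioneer factors of endoderm, held 5 and 7 H3K27me3 peaks in LLC-NR and 7 each in LLC-R, and Sox2, a factor of airway progenitors and stem cells, held 6 in each line. Sox9, a factor of distal lung progenitors and cartilage, had the lowest body density of the list, 1.13 and 1.07. Over the list H3K27me3 stood at 6.00 ± 0.76 and 6.88 ± 0.35 promoter peaks (SD, n = 8 genes). Foxp2 was counted at a start 284 kb downstream of its most upstream TSS.

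The 6 factors of the vessel wall had the highest mean gene-body H3K27me3 of all lists. Sox7, Sox17, Sox18, Gata2, Foxc1 and Foxc2 together had 1.52 ± 0.11 in LLC-NR and 1.26 ± 0.05 in LLC-R (SD, n = 6 genes), and for H3K36me3 0.61 and 0.96. Sox17, a factor of arterial endothelium, had 1.61 and 1.18, and Sox18, a factor of lymphatic endothelium, had 1.63 and 1.25. Sox18 held 8 H3K27me3 promoter peaks for LLC-NR and 6 for LLC-R, and Gata2 held 6 and 7. The 6 factors of blood and immune cells were the most mixed, from 0 to 7 H3K27me3 promoter peaks in LLC-NR. Gata1, the factor of red cells and megakaryocytes, was repressive in both lines with 7 and 8. Foxp3 had 0 and 5, and Pou2f2 (Oct-2 of B cells) had 4 and 6, while Gata3 and Tbx21 each had 6 and 7, and Pax5 had 6 in each line.

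Among neural factors, 12 genes with 5.42 ± 1.31 and 7.0 ± 0.74 H3K27me3 promoter peaks (SD, n = 12 genes), Dlx2 and Pax6 had 4 each in LLC-NR and held 7 and 8 in LLC-R. The bodies of all 12 stayed above 1 for H3K27me3 in both lines, with Pax6 at 1.21 and 1.17. Dlx1 and Dlx2, which lie 18.6 kb apart and are factors of forebrain interneurons, had 5 and 4 peaks in the sensitive line and 8 and 7 in the resistant line. The 12 factors of mesoderm, limb and heart held 6.50 ± 0.90 and 6.92 ± 0.67 peaks, and none was active in either line. Active promoters were few among all tissue-restricted members, 7.26% in LLC-NR and 4.84% in LLC-R. Tbx5, the factor of forelimb and heart, had 8 and 7 H3K27me3 peaks with 2 and 4 of H3K4me3, and Nkx2-5, the cardiac homeodomain factor, had 7 and 6 with 5 and 5. Pou5f1 (Oct4) and Foxd3, factors of pluripotent cells, held 6 H3K27me3 peaks each in LLC-NR and 7 each in LLC-R. Both genes were bivalent in both lines, as were 68.5% of all tissue-restricted members. Pou5f1 was called so by 6 and 5 H3K9ac peaks alone. Its 4 H3K4me3 peaks in each line lay below the thresholds of 4.92 and 4.61.

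The comparison between the lines asks which of these regulators carried other marks in the resistant tumors. Numbers of peaks were divided by the peaks of the library after 0.5 peak was added, and 1.5-fold was the limit. For H3K27me3, 7 members were higher in LLC-R and 3 lower, 4.93% and 2.11%, where 7.72% and 6.74% of all genes were. For H3K4me3, 5 were higher and 9 lower, 3.52% and 6.34%, where 7.25% and 10.5% of all genes were. For H3K9ac, 15 were higher and 21 lower, 10.6% and 14.8%, where 4.46% and 6.8% of all genes were. For H3K36me3, 48 were higher and 10 lower, 33.8% and 7.04%, where 23.3% and 5.75% of all genes and 28.1% and 4.77% of other CpG-rich genes were. The medians of the log2 ratio of LLC-R over LLC-NR were -0.12 for H3K27me3, 0.00 for H3K4me3, -0.12 for H3K9ac and 0.21 for H3K36me3 over the members and -0.12, 0.00, -0.06 and 0.09 over all genes. If numbers were divided by mapped reads, each log2 ratio would shift by -0.77 for H3K27me3, 0.27 for H3K4me3, 0.68 for H3K9ac and -0.77 for H3K36me3, and the direction of the medians of H3K9ac and H3K36me3 would turn. With that scaling 125 members would be lower in H3K27me3, 70 higher in H3K9ac and 64 lower in H3K36me3. Every gene of a mark shifts by the same amount, and the shares of all genes with that scaling are not given here.

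**Figure D5:**
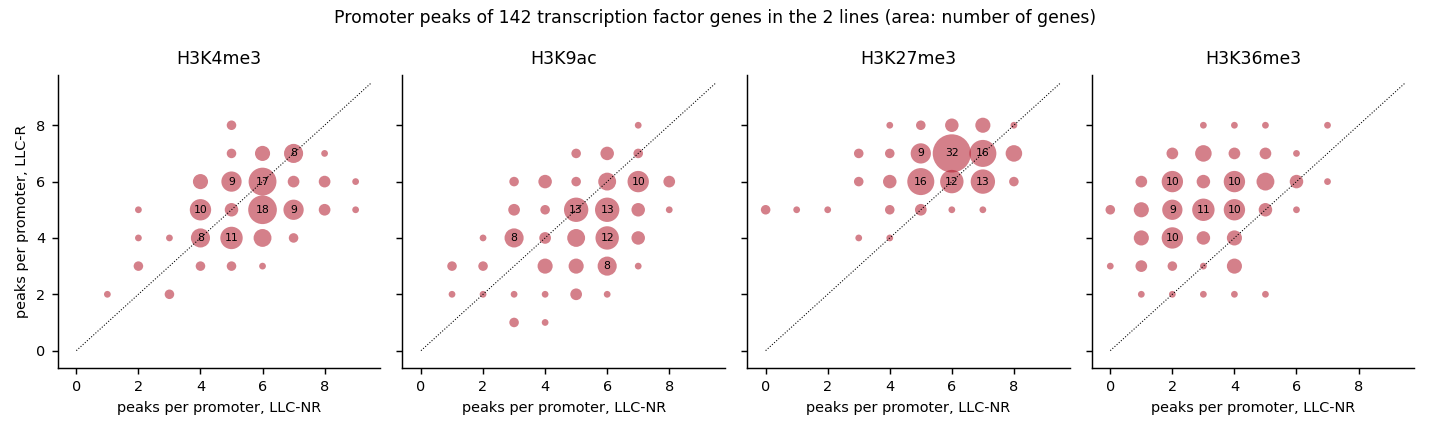
Number of peaks per promoter in LLC-R against LLC-NR for each of the 142 transcription factors, 1 panel per mark, where the area of a point is the number of genes at that pair of values (printed from 8 genes on) and the dotted line marks equal numbers. For H3K27me3 most genes lie between 5 and 8 peaks in both lines. For H3K36me3 117 of 142 genes had more peaks in LLC-R, as had 17361 of all 22225 genes.

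Since no promoter held more than 9 peaks, one with more than 4 H3K27me3 peaks in LLC-NR could not reach the limit upward. Of the members 19 held 4 or fewer, 13.4% against 43.4% of all genes, and 7 of the 19 were higher in LLC-R, 36.8%, where 17.8% of all genes with so few were. The same ceiling lay at 5 peaks for H3K4me3, 6 for H3K9ac and 4 for H3K36me3. Sox15 and Foxp3 were at 0 peaks in LLC-NR and had 5 each in LLC-R. Foxp1, a broadly expressed forkhead factor of lung and lymphocytes, had 1 and 5, Foxn3 had 2 and 5, Foxk2 had 3 and 7, and Pax6, the factor of eye and forebrain, had 4 and 8. The start counted for Foxp1 lay 104 kb downstream of its most upstream TSS, and those of Foxn3 and Foxk2 were CpG-poor. Other promoters of these genes were not counted here. Lower in LLC-R were Tbx19, the factor of pituitary corticotrophs, with 7 and 5, Pax3, a factor of muscle and neural crest, with 8 and 6, and Sox18 with 8 and 6. Lhx4 with 6 and 5 and Foxe3 with 7 and 6 were next and did not reach 1.5-fold.

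H3K4me3 was higher in LLC-R in Tbx22, a factor of the palate, with 2 and 5 peaks, Tbx5 with 2 and 4, Foxk2 with 5 and 8, Nkx2-3, a factor of the spleen and gut, with 5 and 8, and Foxn3 with 1 and 2. Foxr1, with 4 and 6, did not reach the limit. Members with lower H3K4me3 included Dlx5, a factor of bone and forebrain, with 6 and 3, Foxj3 with 9 and 5, Foxe3, a factor of the lens, with 7 and 4, and Lhx8 with 7 and 4, beside Lhx6, Nkx3-2, Sox6 and Tbx15. Foxk2 and Foxn3 were higher in both H3K4me3 and H3K27me3. Foxn3 passed the H3K4me3 limit on 1 peak against 2, below the means of 3.24 and 3.25 in windows far from any TSS.

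For H3K9ac the members lay past 1.5-fold more often than all genes in both directions. Their means of 5.20 and 4.51 peaks were close to the 4.96 and 4.56 of windows far from any TSS. Many of the differences below thus lie around or under that level. Tbx1 and Tbx20, T-box factors of the pharyngeal arches and the heart, had 3 peaks for LLC-NR and 6 for LLC-R, Lhx5 had 2 and 4, and Gata6 and Irx4 had 3 and 5. Of the 12 mesoderm, limb and heart factors 6 were higher in LLC-R and 0 lower, Tbx1, Tbx5, Tbx20, Nkx2-5, Pax1 and Six2. Higher were 4.46% of all genes and 12.1% of all tissue-restricted members. The median log2 ratio over the list was 0.36, against -0.06 over all genes and -0.08 over tissue-restricted members. Six2 passed the limit on 2 peaks against 3. Pou3f3 had 4 and 1 peaks, Lhx4 6 and 2, and Foxn4, Irx3 and Sox4 had 5 and 2. Among the 18 broadly expressed members 0 were higher and 4 lower, Foxn2, Pou6f1, Sox4 and Sox12, where 4.46% and 6.8% of all genes were, with a median of -0.30. A difference of 2 or 3 peaks passed the limit in many of these genes. In the wider region of 2 kb on each side 4 members were higher and 1 lower. The shares of all genes in that region are not given here.

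H3K36me3 promoter peaks were more numerous in LLC-R in 117 of 142 members, equal in 15 and fewer in 10. These are unscaled numbers, and 17361 of all 22225 genes and 9863 of 11877 other CpG-rich promoters also had more peaks in LLC-R. Sox11, a neural HMG-box factor, and Tbx3, a T-box factor of limb and mammary gland, were at 0 in LLC-NR and had 5 in LLC-R, and Irx6, Sox7 and Sox8 had 1 and 6. Irx1 had 5 and 2, Pou4f1 4 and 2, and Foxa3, Foxo4 and Gata5 had 4 and 3. Over the gene bodies the H3K27me3 ratio of LLC-R over LLC-NR had a median of -0.18 (log2) over the members and of 0.19 over other CpG-rich genes, with 0.04 over all genes. For H3K36me3 the medians were 0.06, -0.20 and -0.12. In the broadly expressed members the median H3K27me3 body ratio was 0.18 and in the tissue-restricted ones -0.21. The H3K27me3 library of LLC-R held 1.26 times the peaks of that of LLC-NR, and the part of peak number and of depth in these differences was not tested.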

How the data were processed

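Reads had been aligned by the authors to the mm9 genome using Bowtie (version 0.12.7 per the submitters' processing notes), who kept uniquely mapped reads and called 147-bp peaks in each library with GeneTrack, whose settings are not given in the sources used here. The deposited files hold the start and end of each peak and no height, so numbers of peaks were used although heights had been planned for, and no input library was used here. Chromatin had been digested with micrococcal nuclease.

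Gene models came from GENCODE vM1 and sequences from NCBIM37, the assembly of mm9, and 1 record was kept per symbol, which gave 22225 genes. The TSS was the one shared by most transcripts. HCPs, ICPs and LCPs were assigned in 500-bp intervals with limits of 55% G+C and CpG observed/expected ratios of 0.6 and 0.4. For the background, 1547823 stretches of 1.5 kb were taken that lie 5 kb or more from each TSS. Body densities were counted from TSS to gene end. Libraries were compared after division by their peaks, with 0.5 peak added, or by the mapped reads of the study's mapping statistics as an alternative. Intervals of shares are Clopper-Pearson. Genes were named as the 5 largest differences in each direction per mark among those with at least 4 peaks in 1 line, as the 5 highest and lowest body densities of genes of at least 2 kb, and as members of tissue lists, of which Sox1 was not analysed here. Other members past 1.5-fold and those named with the promoter states were added after their values were seen. The values of some single members are not reported here. The members and lists were chosen with earlier results of these data known. The counting was tested on simulated data. Scripts ran in Python 3.11.15 with pandas 2.3.3, SciPy 1.17.1 and NumPy 2.4.6, and plots were drawn with Matplotlib 3.10.9.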

Additional observations from a re-analysis of the deposited data

How the results depend on the processing

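No paired analysis was possible because each line and mark had 1 library and the labels give no replicate numbers, so that no library could be left out either. Of 142 values recomputed under an alternative, 84 stayed within the normal 95% interval across genes for a ratio, the exact interval for a share, 1.5 times for a count or 0.1 on the log2 scale for a median, and 58 moved. The cause was not tested unless the alternative itself holds fewer genes. Values for a mark are given for LLC-NR and then LLC-R. Against other CpG-rich promoters alone the promoter ratios were 0.911 and 0.921 for H3K4me3, which turned the direction, 0.887 and 0.858 for H3K9ac, and 1.17 for H3K27me3 in LLC-R. Against CpG-rich promoters in the same G+C band, a comparison chosen after seeing the data, they were 0.95 and 0.953, 0.886 and 0.855, and 1.17, with 1.05 for H3K36me3 in LLC-NR. Against gene bodies of other CpG-rich genes the ratios were 1.06 and 1.04 for H3K4me3, 0.878 and 0.877 for H3K9ac, 1.14 for H3K27me3 in LLC-R, and 0.777 and 0.926 for H3K36me3, and the H3K27me3 ratio within 10 kb of the TSS was 1.10 in LLC-R. With bodies counted from 0.5 kb downstream of the TSS the ratios were 1.15 and 1.13 for H3K4me3, 1.16 for H3K27me3 in LLC-R, and 0.852 and 0.989 for H3K36me3. With bodies of 1 to 20 kb they were 0.907 and 0.906 for H3K9ac and 0.853 for H3K36me3 in LLC-NR. With 2 kb on each side of the TSS the promoter ratio of H3K27me3 in LLC-R was 1.17. In that region 1 member was lower in LLC-R for H3K4me3, 4 were higher and 1 lower for H3K9ac, 4 higher and 0 lower for H3K27me3, and 20 higher and 0 lower for H3K36me3. After division by mapped reads 15 members were higher and 1 lower for H3K4me3, 70 and 1 for H3K9ac, 3 and 125 for H3K27me3, and 11 and 64 for H3K36me3, with median log2 ratios of 0.27, 0.56, -0.89 and -0.56. After division by peaks within 1 Mb the H3K4me3 median was -0.11 and 7 members were lower for H3K27me3. With a pseudocount of 1 peak, 4 members were lower for H3K4me3 and 30 higher for H3K36me3. The shares of all genes past 1.5-fold under these alternatives are not given here. Division by mapped reads shifts every gene of a mark by the same amount. With both active marks required, 5.63% of members were active, 33.8% bivalent, 52.8% repressive and 7.75% none in LLC-NR, and 2.82% were active, 33.8% bivalent and 57.0% repressive in LLC-R. Peak numbers saturate at 9 per promoter, and peaks without heights limit what a difference between the lines can show.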
